A study of Caenorhabditis elegans with 4 samples.

Results

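Anti-GFP chromatin immunoprecipitation followed by sequencing (ChIP-seq) of a GFP-tagged F23B12.7 protein gave 332 called regions on the X chromosome of Caenorhabditis elegans, out of 2621 in the authors' combined list. The regions were taken by position alone, as every region that the list places on X, and the X regions of the list of each ChIP replicate were set beside them. These were 128 of 1038 regions (12.3%) in ChIP replicate 1 and 38 of 310 (12.3%) in ChIP replicate 2. All worms were young adult hermaphrodites of strain OP429, kept at 20 °C, and carried the mutation unc-119(ed3) III. They also carried the integrated transgene wgIs429, written F23B12.7::TY1GFP-3xFLA with unc-119(+). The transgene was brought in by bombardment, stands for 1 line, and is present in every sample, inputs included. The samples were 2 ChIP preparations and 2 inputs, an input being total genomic DNA from the same lysates without precipitation. No sample lacks the tagged protein, so signal that does not depend on it cannot be told apart from its binding.

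As background, F23B12.7 is related to CEBPZ of humans and to the yeast protein Noc1, which takes part in building the large ribosomal subunit. The X chromosome of this species differs from the autosomes in several known ways. A condensin-like dosage compensation complex binds it along its length in hermaphrodites and lowers its transcription, it is largely silent in the germline, and genes expressed in the germline are under-represented on it. Genes are also spread more evenly along X than along the autosomes, whose centres are gene-rich. None of these features was measured here.

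The only measurement in the lists is the q-value that the authors' peak caller gave each region, and all q-values below are theirs. The q-value falls with read number as well as with enrichment, and read depth is unknown. Coordinates are those of the deposited lists, on WormBase build WS180. No genome or gene annotation of that build was used, so regions are named by position and no sequence is shown. The furthest called base in any list stood for the length of a chromosome, which gave 17.7 Mb for X and 82.4 Mb for the 5 autosomes. Nothing in the labels says whether the replicates came from separate cultures. Fisher's exact tests below count regions, and neighbouring regions are not independent, so their p-values cover the counting of regions and not the spread between ChIP samples. They were two-sided, with Benjamini-Hochberg adjustment over 6 tests.

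Along X the regions of the combined list formed a fairly level series, and no fixed window of 1 Mb was empty. The 17 full windows of 1 Mb held 12 to 26 regions of the combined list, with a median of 18. The fewest, 12, lay in the first window from the left end, and the most, 26, lay in the windows from 11 to 12 Mb and from 14 to 15 Mb. In ChIP replicate 1 the window from 11 to 12 Mb was again the fullest, with 13 regions, and the windows from 3 to 4 Mb and from 7 to 8 Mb had the fewest, with 4 each. In ChIP replicate 2 every full window held at least 1 X region and the fullest was the window from 1 to 2 Mb, with 5. The fullest window was therefore not the same one in the replicates. Fixed windows can hide gaps longer than 1 Mb. The longest gap on X was 1016660 bp in ChIP replicate 1 and 1428724 bp in ChIP replicate 2. On the autosomes the longest gaps were 1244162 and 2859233 bp in the same lists.

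**Figure D1:**
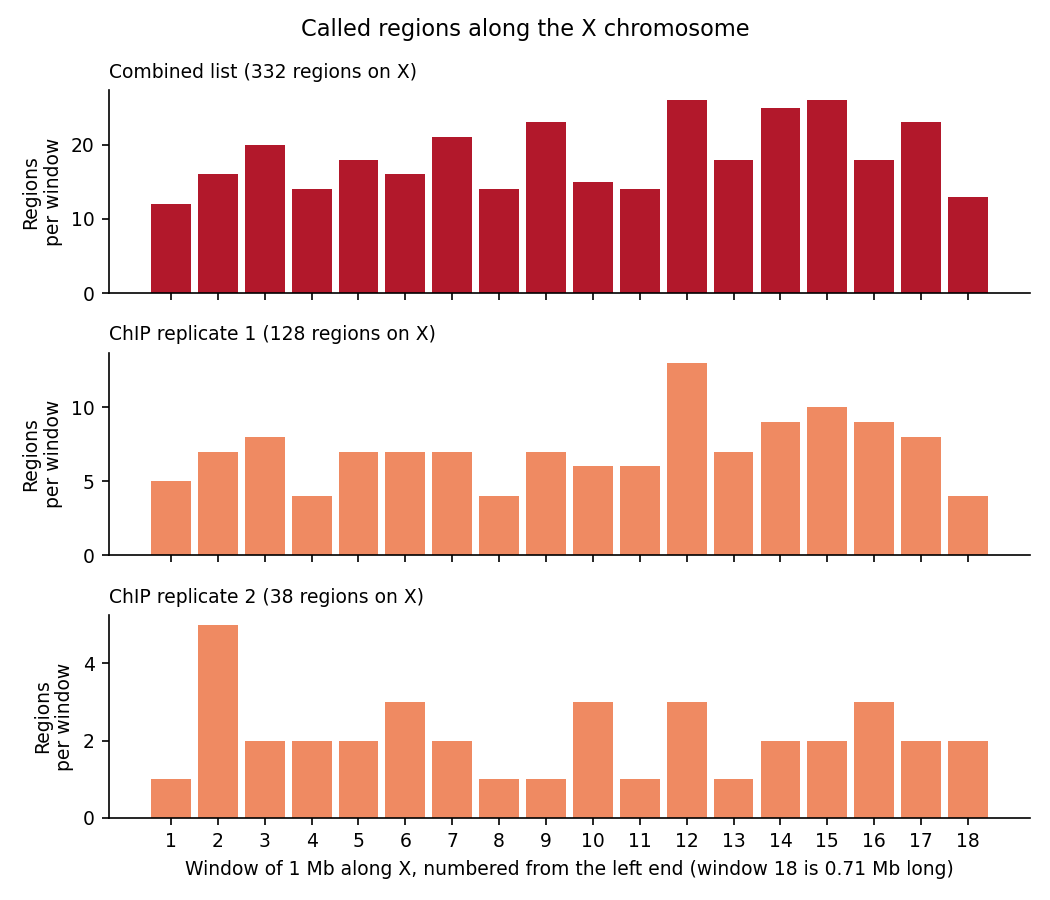
Number of called regions with their midpoint in each 1 Mb window along X, numbered from the left end, in the combined list and in each ChIP replicate. Each bar is 1 window of 1 list, with no error bar because a list gives a single count. Counts run from 12 to 26 in the full windows of the combined list, and no window is empty in any list.

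Set against their mean, these counts spread less on X than on each autosome with windows of 1 Mb. On X the variance of the regions per 1 Mb window was 1.10 times the mean in the combined list, against 1.31 on chromosome I, 1.93 on IV, 2.70 on III, 3.20 on V and 5.63 on II. The ratio on X was 0.66 in ChIP replicate 1, against 0.97 to 3.85 on the autosomes, and 0.52 in ChIP replicate 2, against 0.84 to 2.69. X had the lowest ratio of the 6 chromosomes in each list with windows of 1 Mb or 2 Mb. With windows of 0.5 Mb it did so in both replicate lists, while in the combined list chromosome I was lower, at 0.910 on I against 0.999 on X. This ratio is a description without a test, and the mean number of regions per window differed too, at 18.8 on X against 20.7 to 42.3 on the autosomes in the combined list.

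In the combined list the right part of X held somewhat more regions than the left, a contrast that was not tested. Dividing X into 3 parts of equal length gave 94 regions on the left (28.3%, 95% Wilson interval 23.7 to 33.4%), 111 in the middle (33.4%, 28.6 to 38.7%) and 127 on the right (38.3%, 33.2 to 43.6%). The autosomes had 27.7% on the left, 40.9% in the middle and 31.4% on the right. The share in the middle differed between X and the autosomes by −7.46 percentage points (Fisher's exact test, adjusted p = 0.0297), as was already known from the combined list. In ChIP replicate 1 it was 31.3% on X against 41.9% on the autosomes (Fisher's exact test, adjusted p = 0.0802), and in ChIP replicate 2 it was 26.3% against 39.7% (Fisher's exact test, adjusted p = 0.352). The direction was thus the same in each list, and the test was passed in the combined list only. ChIP replicate 1 had 38 X regions on the left and 50 on the right, the order of the combined list. ChIP replicate 2 had the reverse order, with 15 of its 38 regions on the left (39.5%, 25.6 to 55.3%) and 13 on the right (34.2%). Its left interval includes the left share of the other lists.

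The left end of X held no region over its first 324 kb. The first region of the combined list started at 324046, and on the autosomes the first region started between 3659 (chromosome I) and 125934 (chromosome IV). ChIP replicate 1 began at 353173 on X, against 3726 to 126207 on the autosomes. ChIP replicate 2 began at 806453 on X, and there chromosomes I and II began later, at 1823155 and 1320476, so a late start was not particular to X in that list. At the other end, the last X region of the combined list ended at 17714669, which is also the furthest base called on X in any list. How far the chromosome runs beyond that base cannot be read from the lists.

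The longest gap between neighbouring X regions of the combined list ran from 3371725 to 3697653, which is 325929 bp. The third longest, 243165 bp from 3128155 to 3371319, lay directly to its left. Only a region of 405 bp, from 3371320 to 3371724 with q = 4.84e-07, separated them, and neither replicate called it. The other long gaps ran from 6903353 to 7176843 (273491 bp), from 4789247 to 5022687 (233441 bp) and from 13782284 to 14015708 (233425 bp). None of these 5 gaps contained a region of either replicate list, which was nearly fixed by how the gaps were defined. The combined list overlapped 126 of the 128 X regions of ChIP replicate 1 and 37 of the 38 of ChIP replicate 2. Only the remaining ones could lie inside a gap.

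Neighbouring regions lay further apart on X than on the pooled autosomes. X also had the fewest regions per Mb in the combined list, at 18.7. Chromosomes I and V were close to it, at 20.6 and 20.9, and II, III and IV had 27.6 to 42.1. The median gap on X was 34820 bp (95% order-statistic interval 26873 to 42282 bp, 331 gaps) against 18157 bp (16695 to 19771 bp) on the autosomes. Chromosome I came next, at 28645 bp (22642 to 35844 bp), and its interval overlapped that of X, so the order of these neighbours is not settled. Both replicate lists had the opposite order, with 96271 bp on X against 121625 bp on I in ChIP replicate 1, and 393494 bp on X against 594553 bp on I in ChIP replicate 2. The shortest median was that of chromosome III, at 13337 bp. Gaps over 100 kb made up 17.2% of the gaps on X, or 57 of 331, against 8.14% on the autosomes. The longest gaps of all were autosomal, however, with 693312 bp on chromosome V and 681912 bp on II. The median gap on X was 0.669 times the mean gap, against 0.505 to 0.595 on the 5 autosomes. This order did not hold in the replicate lists, where chromosome I was above X in ChIP replicate 1 (0.711 on X against 0.721) and IV was above X in ChIP replicate 2 (0.874 on X against 0.883). No test was made on gaps, because neighbours are not independent and the number of regions per Mb differs between chromosomes.

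**Figure D2:**
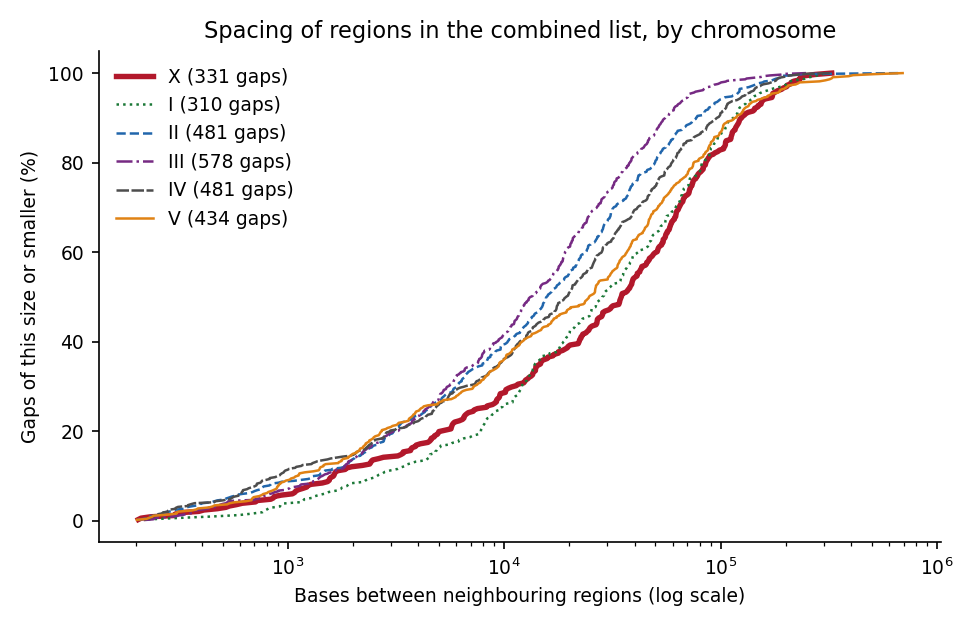
Share of gaps of a given size or smaller between neighbouring regions of the combined list, for X and for each autosome, with the number of bases on a log scale. The curve of X lies to the right of those of chromosomes II, III, IV and V around the middle of the range, with a median of 34820 bp, and close to that of chromosome I.

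At the short end, no 2 regions of any list lay closer than 201 bp. The shortest gap on X was 204 bp, and 19 of the 331 gaps on X were under 1000 bp. How the caller treated stretches closer than this is not given in the sources used here. A broad region of the combined list can therefore stand beside a separate narrow one. The strongest X region, from 16929208 to 16931882, had a neighbour 835 bp to its left, from 16928023 to 16928372, which only ChIP replicate 1 also called.

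Close neighbours were less frequent on X than on the pooled autosomes. X also had fewer regions per Mb in the combined list, 18.7 against 27.8, and whether this plays a part was not tested. A neighbour within 5000 bp was present for 117 of 332 X regions (35.2%, Wilson interval 30.3 to 40.5%), against 42.5% on the autosomes (40.5 to 44.5%). Chromosome I had the lowest share, 28.9% at 20.6 regions per Mb, and chromosome V had 42.5% at 20.9. The remaining autosomes had 44.4 to 45.6%. Joining X regions at that distance gave 39 pairs, 10 groups of 3 and 2 larger groups, and 215 regions stood alone. The longest group held 5 regions on X, and from 4 (chromosome I) to 11 (chromosome II) on the autosomes. In ChIP replicate 1 the share was 15.6% on X (20 of 128) against 29.6% on the autosomes, and X had 10 pairs and no larger group. In ChIP replicate 2 it was 0 of 38 regions on X, for which 3 counts of the total set an upper limit of 7.89% and the Wilson interval one of 9.18%, against 15.8% on the autosomes. Chromosome I also had 0 of 20 in that list.

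The first of the larger groups on X ran from 8016863 to 8027004 and held 4 regions within 10142 bp. Its left member, from 8016863 to 8018698, was 1836 bp wide with q = 7.61e-16, and the others had q = 5.47e-11, 1.39e-06 and 3.29e-05. Neither replicate list contained any of these 4 regions. The second group ran from 12660903 to 12672213 and held 5 regions within 11311 bp. Its central and widest member, 1524 bp from 12664443 to 12665966 with q = 1.22e-14, was called in ChIP replicate 1, and the other members were called in neither replicate.

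Regions on X were wider than regions on the autosomes. The median width in the combined list was 422.5 bp on X (95% order-statistic interval 397 to 461 bp) against 363 bp on the autosomes (357 to 371 bp). Of the X regions, 205 of 332 (61.7%, Wilson interval 56.4 to 66.8%) were wider than the median of the whole list, 371 bp, against 1094 of 2289 autosomal regions (47.8%, 45.8 to 49.8%). The difference was 13.95 percentage points (Fisher's exact test, adjusted p = 1.43e-05). X also passed the test against each autosome alone, with the smallest difference against chromosome I, 10.3 points (Fisher's exact test, adjusted p = 0.0297), and the largest against chromosome II, 17.97 points (Fisher's exact test, adjusted p = 3.32e-06). These separate tests were chosen after the data were seen.

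The same direction appeared in each replicate list with its own median as the limit. In ChIP replicate 1, 85 of 128 X regions (66.4%) were wider than the median of that list against 433 of 910 autosomal regions (47.6%; Fisher's exact test, adjusted p = 4.05e-04), with median widths of 429.5 and 369 bp. In ChIP replicate 2, 28 of 38 X regions (73.7%) and 127 of 272 autosomal regions (46.7%) were wider (Fisher's exact test, adjusted p = 0.0170), with medians of 474.5 bp on X and 379 bp on the autosomes. These lists share most of their regions with the combined list and are not independent of it.

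**Figure D3:**
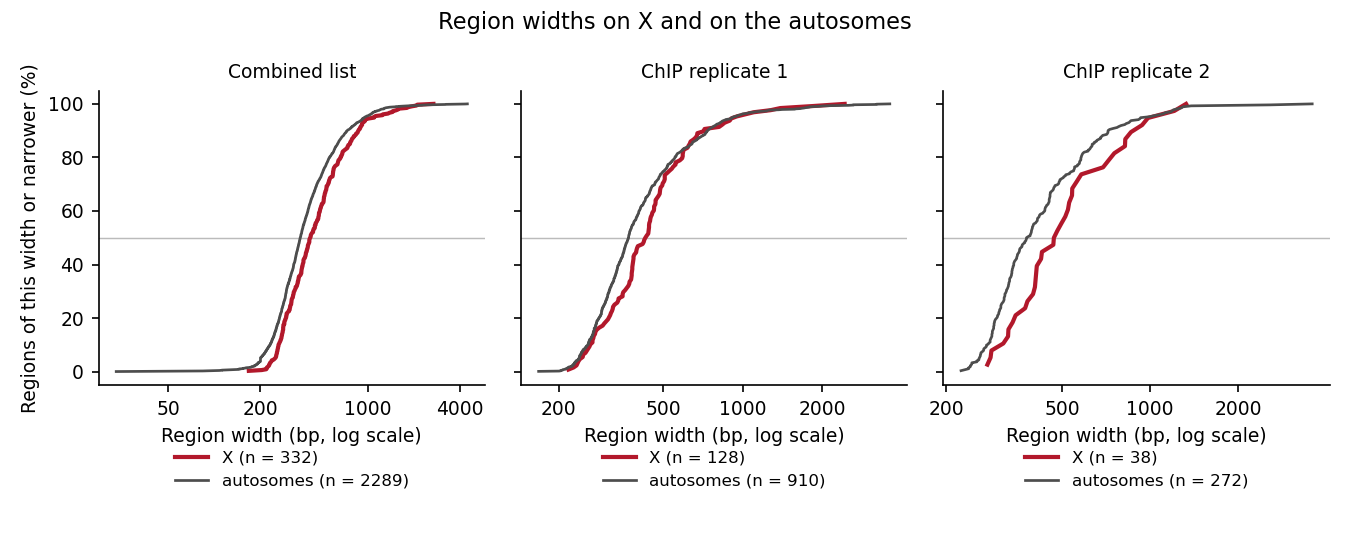
Share of regions of a given width or narrower on X and on the autosomes, in the combined list and in each ChIP replicate, with width in bp on a log scale. The curve of X lies to the right of that of the autosomes around the 50% line in each panel, where the medians are 422.5 and 363 bp, 429.5 and 369 bp, and 474.5 and 379 bp, with X first.

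The lower quartile of width was 317 bp on X and 281 bp on the autosomes, and the upper quartile was 597 bp on X and 512 bp on the autosomes. In the combined list very narrow regions were rare on X, where 1 of 332 regions (0.301%) was under 200 bp wide. The autosomes had 87 of 2289 (3.80%), from 1.61% on chromosome V to 5.60% on II. ChIP replicate 1 had 1 such region in all and ChIP replicate 2 had 0, so those lists cannot show this contrast. It was not tested. The narrowest X region, from 2526152 to 2526319, measured 168 bp, and 34 autosomal regions were narrower than that, down to 23 bp on chromosome III. The next narrowest on X were 204 bp from 13544443 and 218 bp from 13714706. Above 1000 bp the difference did not pass the test, with 19 X regions (5.72%) and 102 autosomal ones (4.46%; Fisher's exact test, adjusted p = 0.652).

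Width goes together with q-value in these lists, so widths were also set side by side within quartiles of the combined q-value. In the quartile of lowest q-value, the median was 598 bp on X and 504 bp on the autosomes, and in that of highest q-value it was 365 bp on X and 280 bp on the autosomes. In the 2 quartiles between them, the medians were 416 bp on X against 373.5 bp, and 359.5 bp on X against 325 bp. More X than autosomal regions passed 371 bp in each quartile. The difference passed the test in the first quartile, 93.2% against 77.9% (Fisher's exact test, adjusted p = 0.0069), and in the last, 47.8% against 25.5% (Fisher's exact test, adjusted p = 1.73e-04). It did not pass in the second (61.3% on X against 50.7%; Fisher's exact test, adjusted p = 0.218) or the third (48.7% on X against 36.3%; Fisher's exact test, adjusted p = 0.131). Whether fragment length, mappability or the scaling of the input on X plays a part was not tested.

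The 5 widest X regions differed in replicate support. The widest, 2675 bp from 16929208 to 16931882, was called in both replicates, at 2439 bp in ChIP replicate 1 and 1328 bp in ChIP replicate 2. The regions of 2102 bp from 3114682 to 3116783 and of 2078 bp from 4144455 to 4146532 were called in ChIP replicate 1 only, over 1864 and 1021 bp. The region of 1937 bp from 6742794 to 6744730 was called in both, over 556 bp in ChIP replicate 1 and 822 bp in ChIP replicate 2. The fifth was the region at 8016863 described above, which neither replicate called.

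The q-values of X regions were not lower than those of autosomal regions as a whole. The median −log10 q of the combined list was 5.49 on X and 5.49 on the autosomes. The quartile with the lowest q-values held 73 of 332 X regions (22.0%, Wilson interval 17.9 to 26.7%) against 583 of 2289 autosomal regions (25.5%, 23.7 to 27.3%), a difference of −3.48 percentage points (Fisher's exact test, adjusted p = 0.352). In ChIP replicate 1 the counts were 32 of 128 on X and 228 of 910 for the autosomes (Fisher's exact test, adjusted p = 1). ChIP replicate 2 went the other way, with 17 of 38 X regions (44.7%, 30.1 to 60.3%) in its own lowest quartile against 61 of 272 autosomal regions (22.4%, 17.9 to 27.7%; Fisher's exact test, adjusted p = 0.0146). On single autosomes this share ran from 16.3% on chromosome V to 28.8% on chromosome II in that list.

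The share of X among the lowest q-values varied with the number of regions taken. Among the 10 lowest it had 1 region in the combined list (10.0%, Wilson interval 1.79 to 40.4%), 2 in ChIP replicate 1 and 4 in ChIP replicate 2. Among the 50 lowest q-values it had 13 regions in the combined list (26.0%, Wilson interval 15.9 to 39.6%), 12 in ChIP replicate 1 (24.0%, 14.3 to 37.4%) and 16 in ChIP replicate 2 (32.0%, 20.8 to 45.8%). Among the 100 lowest it had 21 in the combined list (14.2 to 29.98%), 14 in ChIP replicate 1 (8.53 to 22.1%) and 17 in ChIP replicate 2 (10.9 to 25.5%). At 100 the intervals of both replicates include the share of X in the whole list, 12.3% in each. The interval of the combined list at 100 lies above its own whole-list share, 332 of 2621 regions. At 50 the interval of each list lies above the whole-list share of that list. At 10 only that of ChIP replicate 2 does, at 16.8 to 68.7%. The limits were chosen after the values were seen, so no test is given.

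The X region with the lowest q-value, from 16929208 to 16931882, had q = 1.70e-65 in the combined list, 4.10e-44 in ChIP replicate 1 and 3.20e-15 in ChIP replicate 2. It ranked 2 of all regions in the combined list and in ChIP replicate 1, and 5 in ChIP replicate 2. The next, from 8036048 to 8036883, had q = 2.86e-31, 1.05e-17 and 5.37e-13 in the same lists. It lay 9043 bp to the right of the group of 4 regions that the replicates missed. The gap between these strongest X regions on the −log10 scale was wide in the combined list, 64.8 against 30.5, and in ChIP replicate 1, 43.4 against 17.0, but small in ChIP replicate 2, 14.5 against 12.3.

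In ChIP replicate 2 the X region with the lowest q-value was another one, from 2996594 to 2997413 with q = 2.26e-16. The matching combined region, from 2996730 to 2997389, had q = 7.36e-28 and ranked 5 on X. Its q-value in ChIP replicate 1 was 4.47e-20. The region from 1626835 to 1627393 (q = 1.95e-24) was the only one of the 10 lowest on X with a lower q-value in ChIP replicate 2, 2.24e-13, than in ChIP replicate 1, 3.83e-12.

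The other X regions among the 10 lowest had the following positions. One began at 11093869 and ended at 11094363 (495 bp, q = 4.30e-28), and another spanned 806433 to 806913 (481 bp, q = 7.02e-28). The region from 1503776 to 1505160 (q = 5.97e-26) was the second widest of the 10, at 1385 bp. Bases 12362757 to 12363354 formed a region of 598 bp with q = 3.96e-25, and bases 14525528 to 14526052 one of 525 bp with q = 9.33e-23. The region from 4208543 to 4209466 (q = 6.69e-22) was called as 2 regions in ChIP replicate 1 and as 1 in ChIP replicate 2. The 10 regions stood in 9 different 1 Mb windows from the first to the seventeenth. Those starting at 806433, 1503776, 1626835 and 2996730 all lay in the first 3 Mb. Whether the 10 gather over stretches longer than 1 Mb was not tested.

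Replicate support of the X regions was close to that of the autosomes, and no difference passed the test. At least 1 replicate list overlapped 134 of 332 X regions by 1 bp or more (40.4%, Wilson interval 35.2 to 45.7%), against 922 of 2289 autosomal regions (40.3%, 38.3 to 42.3%) and 40.3% over all combined regions. The difference was 0.082 percentage points (Fisher's exact test, adjusted p = 1). Both replicates called 28 X regions (8.43%, 5.90 to 11.9%), against 220 on the autosomes (9.61%, 8.47 to 10.9%) and 9.46% over all regions (Fisher's exact test, adjusted p = 0.698). ChIP replicate 1 overlapped 125 X regions (37.7%), against 38.2% over all regions, and ChIP replicate 2 overlapped 37 (11.1%), against 11.6%. ChIP replicate 1 alone called 97 (29.2%), against 28.7% over all regions, ChIP replicate 2 alone 9 (2.71%), against 2.14%, and neither 198 (59.6%), against 59.7%. Chromosome I, with 30.9% of its regions called in at least 1 replicate, stood lower than X, and the other autosomes had 40.9 to 43.8%.

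Set against each other without the combined list, the replicates shared 28 X regions. ChIP replicate 2 thus met 28 of the 128 X regions of ChIP replicate 1 (21.9%, Wilson interval 15.6 to 29.8%), against 224 of 910 on the autosomes (24.6%, 21.9 to 27.5%) and 24.3% over all regions (Fisher's exact test, adjusted p = 0.698). In the other direction, 28 of 38 X regions of ChIP replicate 2 (73.7%) were met by ChIP replicate 1, against 82.4% on the autosomes and 81.3% over all regions, a contrast that was not tested.

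Support by q-value followed the same course on X as elsewhere. From the lowest to the highest quartile of the combined q-value, 84.9%, 49.5%, 18.4% and 13.3% of X regions were called in at least 1 replicate, against 89.0%, 46.5%, 18.1% and 6.37% of autosomal ones. None of these 4 differences passed the test, and the closest was that of the last quartile, with 12 of 90 X regions against 36 of 565 (Fisher's exact test, adjusted p = 0.0551). Of the 28 X regions called in both replicates, 27 fell in the first quartile, against 209 of the 220 on the autosomes. The 15 X regions with the lowest combined q-values were all called in both.

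**Figure D4:**
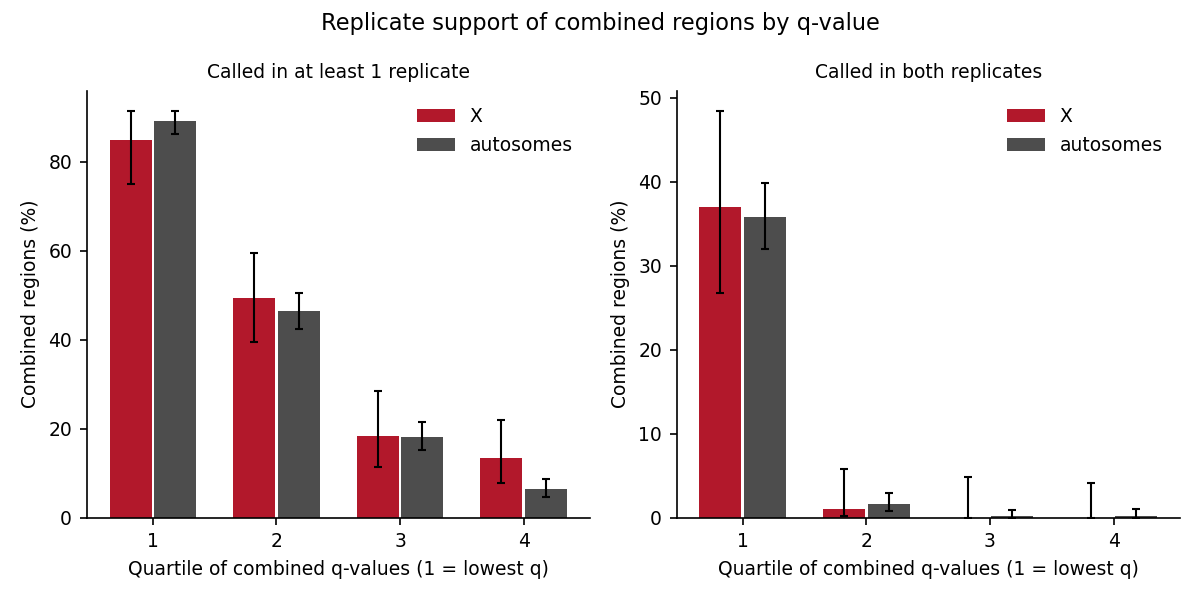
Share of combined regions called in at least 1 replicate (left) and in both replicates (right) by quartile of the combined q-value, for X and for the autosomes. Bars are shares and error bars are 95% Wilson intervals, which cover counting error only. In each quartile the difference between X and the autosomes did not pass the test, with 84.9% on X and 89.0% on the autosomes in the first.

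The 28 X regions called in both replicates had low q-values and near-equal midpoints, which the way they were picked itself favours. Each had to be called in every list, with replicate regions that overlapped the same combined region. Their median −log10 q was 18.4 in the combined list, 9.23 in ChIP replicate 1 and 8.27 in ChIP replicate 2, against 12.1, 6.99 and 5.57 for the 220 autosomal regions called in both. The combined q-value was below both replicate q-values in 28 of 28, against 216 of 220 on the autosomes. The q-value was lower in ChIP replicate 1 for 20 of the 28 and in ChIP replicate 2 for 8. On the autosomes these counts were 167 and 53. Widths on X did not lean to 1 replicate, with 15 wider in ChIP replicate 1 and 13 wider in ChIP replicate 2. Their medians were 490.5 and 474.5 bp. On the autosomes 120 were wider in ChIP replicate 1, 98 in ChIP replicate 2, and 2 had equal widths. The midpoints on X lay a median of 40.5 bp apart between the replicates. Of the 28, 24 (85.7%) lay within 100 bp, against 165 of 220 on the autosomes. The largest shift on X was 479.5 bp.

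**Figure D5:**
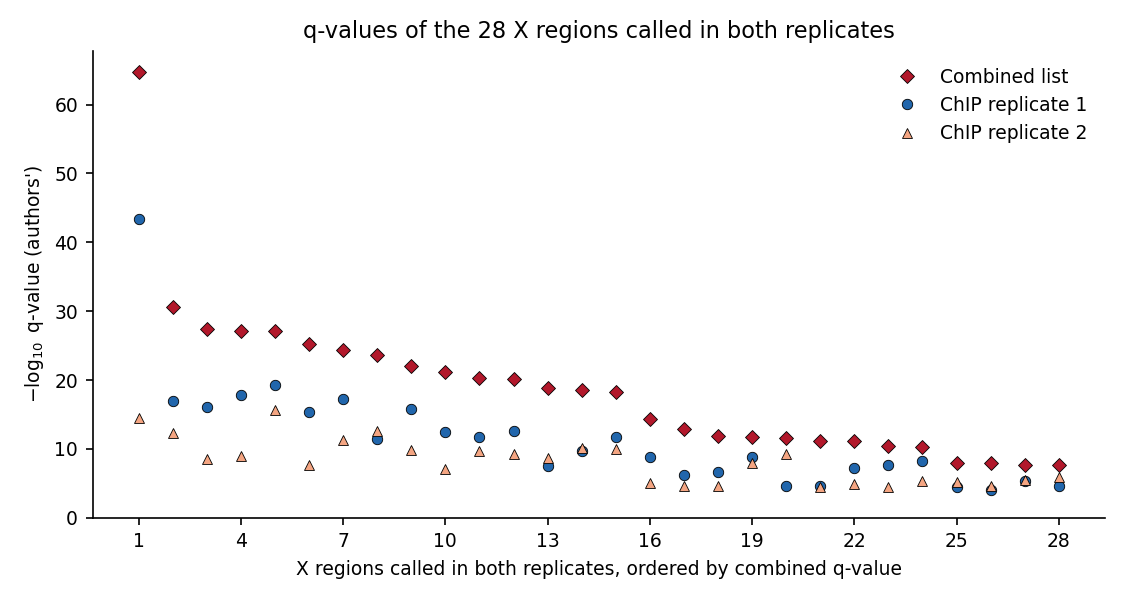
The authors' q-values on the −log10 scale for the 28 X regions called in both replicates, in order of the combined q-value, with 1 point for each list. The first region stands far above the rest in the combined list and in ChIP replicate 1, at 64.8 and 43.4, and the combined value is the highest of the 3 for each region.

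Of the 73 X regions in the first quartile, 11 (15.1%) overlapped neither replicate list, against 64 of 583 autosomal regions (10.98%). The lowest q-value among those on X was that of the region from 8016863 to 8018698, which ranked 76 of 2621. It was followed by bases 13729752 to 13730852, with q = 1.28e-13, and bases 13144087 to 13145536, with q = 9.17e-12. These 3 regions were 1836, 1101 and 1450 bp wide, and were picked after their values were seen.

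Of the X regions in ChIP replicate 1, 100 (78.1%) had no counterpart in ChIP replicate 2, against 686 of 910 autosomal regions (75.4%). The lowest q-value among those on X, 1.44e-09, belonged to bases 16681758 to 16682334. Bases 16611593 to 16612982 and bases 8404126 to 8404719 followed, each with q = 2.52e-09. Each overlapped a combined region, with q = 6.46e-16, 1.08e-08 and 5.84e-13, so the combined q-value was higher than that of the replicate for the second of them. Of the X regions in ChIP replicate 2, 10 (26.3%) had no counterpart in ChIP replicate 1, against 48 of 272 autosomal regions (17.6%). On X their lowest q-values were 9.85e-07 from 3969398 to 3970257, 1.21e-06 from 11757663 to 11757939 and 1.92e-05 from 2852353 to 2852818. The combined list overlapped all but 3 of the replicate regions on X. For ChIP replicate 1 this was 126 of 128 on X, against 879 of 910 on the autosomes and 1005 of 1038 over all regions. For ChIP replicate 2 it was 37 of 38 on X, against 271 of 272 and 308 of 310. The missing ones on X were 15297313 to 15297574 (q = 5.84e-05) and 8231720 to 8232160 (q = 1.02e-04) of ChIP replicate 1, and 9838073 to 9838418 (q = 3.48e-05) of ChIP replicate 2.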

How the data were processed

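The lists were called by the authors with PeakSeq on WormBase WS180, per the file headers and the source column, and the deposited value of each region is a q-value. How reads were aligned, how the combined list was made and which input and q limit served each list is not given in the sources used here, and no input library or read count was analysed. Per the labels' protocols, worms were crosslinked in 2% formaldehyde, and 10% of the lysate was kept as input. From the region positions, widths, gaps and overlaps (1 bp or more) were computed with Python 3.11.15, pandas 2.3.3 and SciPy 1.17.1. Shares on X and on the 5 autosomes were compared by Fisher's exact test, adjusted over 6 tests, and an alternative took its own place among the 6. The script that runs this test was checked on simulated lists, whose values are not reported. Named regions were the 10 lowest q-values on X, the 5 widest, the 3 narrowest, the 5 longest gaps, groups of 4 or more at 5000 bp, and for each replicate the 3 lowest q-values without a counterpart and those outside the combined list. The fullest and emptiest 1 Mb windows were named too. The members, tests and rules were chosen with earlier results of these data known. Intervals cover counting error only.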

Additional observations from a re-analysis of the deposited data

How the results depend on the processing

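Differences are X minus autosomes, in percentage points. The q-value falls with depth, which is unknown, and regions are not replicates. No paired analysis was possible because each ChIP sample is 1 list of regions and the inputs were not analysed here. Of 88 alternatives, 58 kept direction, call or size. The cause of the other outcomes was not tested.

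Support in at least 1 replicate (0.082) turned to −1.89 at one q limit for all lists, −0.068 without regions over 2000 bp, −4.09 within the first q quartile and −1.40 without chromosome I, and ran from −0.576 to −0.520 with 1 replicate left out. Support in both (−1.18) turned to 0.375 with midpoints within 100 bp and 1.14 within the first quartile. The share of ChIP replicate 1 met by replicate 2 (−2.74) turned to 0.398 by midpoints. None of these passed Fisher's exact test. The lowest-quartile share (−3.48) was 0.883 for the lowest 10%, and −0.055 (ChIP replicate 1) to 22.3 (ChIP replicate 2) in single replicates, where replicate 2 passed.

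The width difference (13.95) fell below the threshold as 1.27 above 1000 bp, 10.6 in the second quartile and 12.3 in the third quartile, and kept its call in each replicate (18.8 to 27.0). The middle of X (−7.46) lost its call in each replicate (−13.4 to −10.6), in the lower-q 50% (−7.52), without chromosome V (−7.07), and against chromosomes I (−7.40), II (−7.85), III (−6.98) and IV (−6.19) alone. It kept it against V alone (−9.10). Comparisons with single autosomes and windows of 0.5 and 2 Mb were added after the data were seen.

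The median gap on X moved to 64141 bp in the lower-q 50% and to 96271 to 393494 bp in single replicates. The share with a close neighbour was 22.3% at 2000 bp, 48.2% at 10000 bp, and 0 to 15.6% in single replicates. Windows of 0.5 Mb gave a variance 0.999 times the mean and windows of 2 Mb gave 0.764, against 1.10 at 1 Mb. The 2 Mb value was counted among the 58 although its size changed more. X had the lowest ratio of all chromosomes in the combined list at 2 Mb, but not at 0.5 Mb.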
